A study of Mus musculus with 30 samples.

Results

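The comparison described here is *E168d2/+* against *E168d2neo/+* mouse retina at postnatal day 10 (P10), a pair of genotypes that carry the same *Crx* mutation with a higher and a lower output of the mutant allele. It rests on 6 of the 30 RNA-seq libraries, 3 for each genotype. A gene entered the comparison at 5 CPM (reads counted on the gene, scaled to the depth of the library) or more in all 3 libraries of either genotype, and 11967 of the 12573 genes listed did so. The study as a whole measured whole retinas in 10 groups of 3 libraries, WT and *Crx* knock-in mice at P10 and P21. By the study's methods a library came from a pool of 4 retinas, those of 1 male with those of 1 female, which Y-linked genes did not bear out in 2 *E168d2/d2* libraries. All mice were on the C57BL6/J background. Nothing states that the pools were kept apart in any other way, so the p-values measure the spread between pools.

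*E168d2/+* mice are heterozygous for a frameshift at the glutamate of CRX that gives the allele its name. *E168d2neo/+* mice are heterozygous for the same frameshift with a *neomycin* selection cassette left in an intron of the mutant gene, which lowers the output of mutant protein. Both keep a WT *Crx* allele, and both are germline alleles present in every cell. The groups set beside them are WT at P10, *E168d2/d2* at P10 (homozygous, without the cassette), *R90W/+* and *R90W/W* at P10 (a substitution in the homeodomain), and WT, *R90W/+*, *E168d2/+* and *E168d2neo/+* at P21. The P21 WT mice were littermates of mutants. The origin of the P10 WT mice is not given in the sources used here.

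CRX is a homeodomain transcription factor of rod and cone photoreceptors that binds short TAAT-containing sites near many photoreceptor genes and activates them together with NRL, NR2E3 and OTX2. The frameshift removes most of the activation domain and leaves the DNA-binding domain, so the mutant protein can occupy sites without activating them and is antimorphic. Phototransduction is the cascade by which an opsin, a transducin, a phosphodiesterase and a cyclic-nucleotide-gated channel turn light into an electrical response, and rods and cones use separate genes for most steps. P10 in the mouse falls while outer segments are growing, shortly before the eyes open.

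The reference sequence at the mutated codon is shown because both genotypes are built on it. It lies in the last coding exon of *Crx* on mm9 at chr7:16453498-16453554, minus strand, and the glutamate codon named in the allele is in capitals.

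*Crx* around the mutated codon, with 27 bases on either side: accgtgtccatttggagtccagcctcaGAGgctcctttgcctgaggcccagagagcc

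Estimated depth was 15.9 to 21.1 M reads on genes in the *E168d2/+* libraries and 19.3 to 24.2 M in the *E168d2neo/+* libraries, so 5 CPM stood for 79.3 to 121 reads. A pair of libraries stood apart from their groups. *E168d2/+* replicate C deviated from its group mean with an SD over genes of 0.144 on the log2 scale and *E168d2neo/+* replicate B with 0.14, against 0.0783 to 0.102 in the other 4. *E168d2/+* replicate C also carried lens RNA, with 10 lens genes summing to 3910 CPM against 40.4 to 81.2 CPM in the other 5 libraries. The 587 genes that rose with age in WT had a median log2 difference from WT of 0.335 and 0.294 in *E168d2/+* replicates A and B, but 0.0185 in replicate C and 0.0482 to 0.132 in *E168d2neo/+*. Counts of calls are therefore also given without *E168d2/+* replicate C, or without both, where that moved them.

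*Crx* itself (mm9 chr7:16451296-16465317, minus strand) was read from both alleles together, since the counts do not separate WT from mutant transcripts. It stood at 2175, 2095 and 2277 CPM in *E168d2/+* and at 1846, 1820 and 1769 CPM in *E168d2neo/+*. The groups did not overlap, and the log2 ratio of *E168d2/+* over *E168d2neo/+* was 0.27 ± 0.07 (SE, n = 3 in each group), with an FDR of 0.088 by limma, which did not pass 0.05. WT libraries held 1539, 1601 and 1481 CPM, so the group means were 142% and 118% of WT. At P21 the gap was wider, with 1830, 1611 and 1788 CPM in *E168d2/+* and 1128, 1070 and 1212 CPM in *E168d2neo/+*, and there it passed (log2 ratio 0.62, limma FDR 0.0091).

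The largest difference of any called gene was in *Obox6*, an oocyte-type homeobox gene that is the next gene to *Crx* on its chromosome (chr7:16418595-16425027, minus strand, 26.3 kb away). Its level was 28.8, 33.2 and 34.4 CPM in *E168d2neo/+* and 1.42, 0.694 and 1.01 CPM in *E168d2/+*. WT libraries held 0.564 to 0.642 CPM and *E168d2/d2* libraries up to 1.85 CPM. *E168d2neo/+* was therefore the group that stood away from all others, while *E168d2/+* lay near WT. The log2 ratio was -4.86 ± 0.21 (SE, n = 3 in each group), a 29.1-fold difference (limma FDR 1.07e-05). At P21 *E168d2neo/+* held 3.38, 3.54 and 9.98 CPM and *E168d2/+* 1.30 to 1.75 CPM, still without overlap.

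Of the 20 genes nearest to *Crx*, 10 on each side, 10 were in the table, and *Obox6* was the only one of them called. *Crxos1*, which starts 2.65 kb away on the other strand, had a log2 ratio of 0.32 (limma FDR 0.128). The selection cassette lies in *Crx*, and whether it bears on *Obox6* was not tested.

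**Figure D1:**
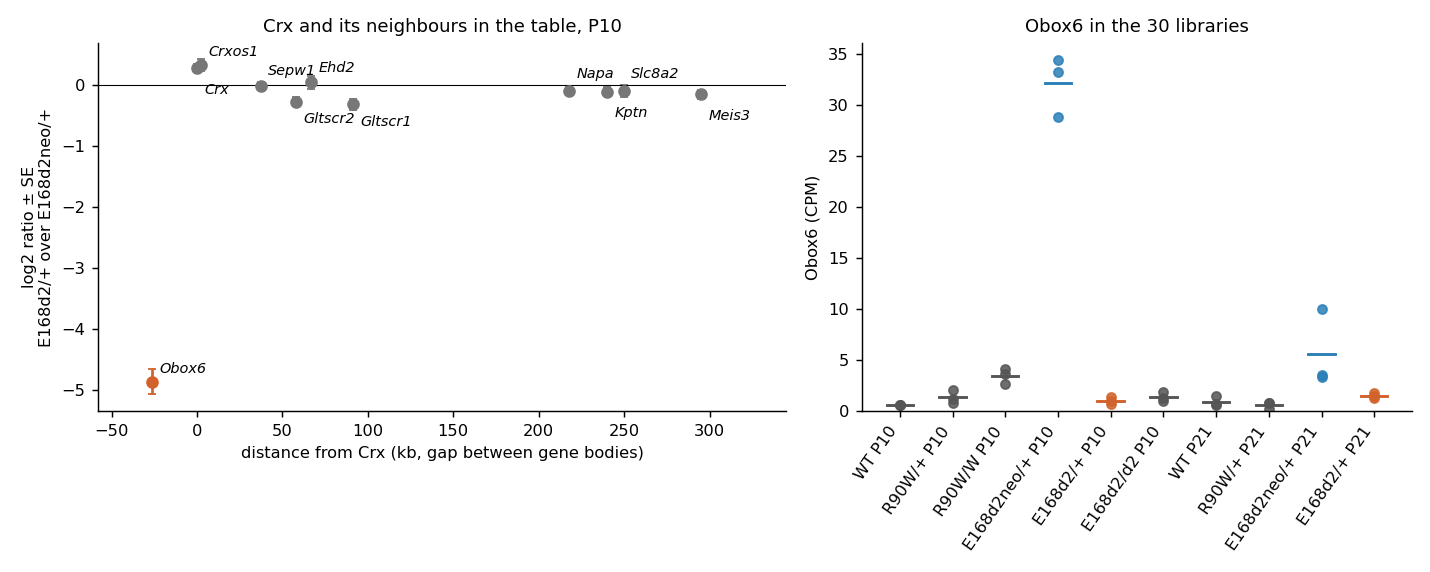
Left, log2 ratio of E168d2/+ over E168d2neo/+ at P10 (points, with SE bars) for Crx and its neighbours in the table, against the gap to Crx in kb. Orange marks the called gene, Obox6 at -4.86, and grey the genes not called. Right, Obox6 in CPM in each of the 30 libraries with group means as bars, where E168d2neo/+ at P10 (28.8 to 34.4 CPM) stands above every other group.

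Across the retina, few genes were called between the genotypes, and most of these differed by small amounts. At an FDR of 0.05 or less, without a fold limit, 102 genes were called, 0.852% of those tested. Of these, 62 were lower in *E168d2/+* (0.518% of tested genes) and 40 were higher (0.334%). The median size of a called difference was 0.52 on the log2 scale, and 7 genes passed 2-fold: *Obox6*, *Pde6h*, *Arr3*, *Glp2r* and *Rcvrn* were lower, and *Atp4a* and *Col16a1* were higher. The median log2 ratio of all tested genes was 0.02. All 102 called genes had libraries without overlap between the groups, which was also true of 28.2% of tested genes.

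The number of calls rested on single libraries. Without *E168d2/+* replicate C there were 245 calls, 133 higher and 112 lower, and 101 of the 102 genes were among them. Leaving out 1 *E168d2neo/+* library gave 24 (replicate A), 35 (B) or 16 (C) calls, and leaving out *E168d2/+* replicate A or B gave 29 or 18. With *E168d2/+* replicate C and *E168d2neo/+* replicate B both left out, a choice made after seeing the data, 1053 genes were higher and 679 lower. All 102 genes kept their direction in the 6 fits without 1 library, which their lack of overlap fixed in advance. Of them, 13 were called in all 6. Just inside the limit were *Plekhg3*, *Fhod3* and *Tet1* (FDR 0.0493), and just outside *Zfp780b*, *2010001M09Rik* (both 0.0511) and *Slc38a3* (0.0512).

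**Figure D2:**
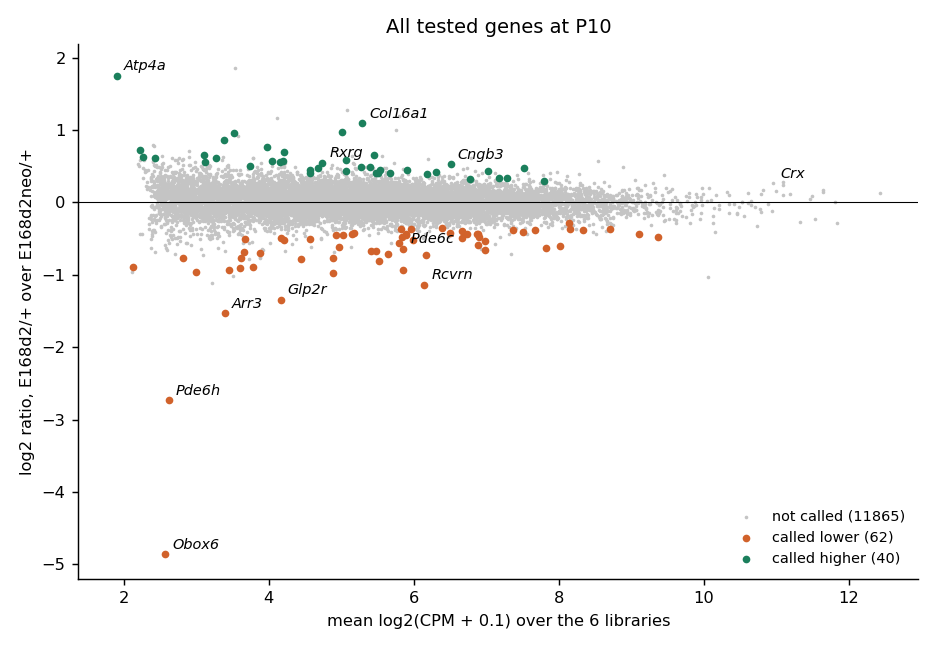
Each of the 11967 tested genes by its mean log2(CPM + 0.1) over the 6 libraries (horizontal) and its log2 ratio of E168d2/+ over E168d2neo/+ at P10 (vertical). The 62 genes called lower are orange and the 40 called higher green. Most called genes lie within 1 log2 unit of 0, and Obox6 and Pde6h lie far below.

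Cone phototransduction genes held the largest falls among genes of known retinal function. Of 10 cone genes listed by the study, 8 were tested, and 4 fell in *E168d2/+*: *Pde6h*, *Arr3*, *Pde6c* and *Opn1sw*. The share of all tested genes that fell was 0.518%. Their list had a median log2 ratio of -0.56, against 0.02 over all tested genes. Of the 8, 6 fell without *E168d2/+* replicate C, against 0.931% of all genes tested that way. Any other library left out gave 3 or 4 falls, against 0.117% to 0.208%. In whole retina, fewer cones and less RNA per cone cannot be told apart.

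*Pde6h*, the inhibitory subunit of the cone phosphodiesterase (chr6:136903044-136917386), fell furthest. It was at 2.99, 2.33 and 1.71 CPM in *E168d2/+* and at 15.8, 15.9 and 15.7 CPM in *E168d2neo/+*, with 61.2 to 65.4 CPM in WT. Every *E168d2/+* library was well below every *E168d2neo/+* library, and the means were 3.73% and 25.1% of WT. The log2 ratio was -2.73 ± 0.18 (SE, n = 3 in each group; limma FDR 0.000245), a 6.65-fold difference. *Arr3*, the cone arrestin that shuts off activated opsin (chrX:97800836-97813832), was at 7.73, 5.23 and 5.55 CPM against 19.3, 16.7 and 17.4 CPM. It stood at 10.5% and 30.2% of WT, with a log2 ratio of -1.53 ± 0.15 (limma FDR 0.00244).

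The catalytic subunit of the cone phosphodiesterase, *Pde6c*, fell less than its inhibitory partner. Its levels were 46.8, 44.5 and 47.6 CPM in *E168d2/+* and 73.4, 72.2 and 71.0 CPM in *E168d2neo/+*, or 44.5% and 69.4% of WT (log2 ratio -0.64 ± 0.06, limma FDR 0.00244). The short-wavelength opsin *Opn1sw* was at 48.3, 52.2 and 44.9 CPM against 70.3, 69.8 and 61.7 CPM (log2 ratio -0.47, limma FDR 0.0354). Both opsin groups were far under the 206 to 220 CPM of WT. The medium-wavelength opsin *Opn1mw* had a log2 ratio of -0.96 on low levels, 2.40 to 4.08 CPM against 5.62 to 6.19 CPM, and did not pass (FDR 0.0519). The cone transducin subunit *Gnat2* was at 23.1 to 23.3 CPM against 29.1 to 30.4 CPM and did not pass either (FDR 0.0534).

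The cone channel subunits did not share a direction. *Cngb3* rose, from 80.9, 68.6 and 78.8 CPM in *E168d2neo/+* to 112, 109 and 107 CPM in *E168d2/+*, and WT was lowest at 34.9 to 40.1 CPM (log2 ratio 0.52 ± 0.07, limma FDR 0.02). The means were 297% and 207% of WT. Its partner *Cnga3* fell under the 5 CPM filter and was not tested. It was at 0.996, 1.26 and 1.55 CPM in *E168d2/+*, at 4.89, 4.87 and 4.79 CPM in *E168d2neo/+* and at 14 to 16 CPM in WT, without overlap between any of the groups.

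The promoters of *Pde6h* and *Arr3*, the cone genes with the largest falls, are printed as given by RefSeq on GRCm38.p6, from 250 bases before to 50 bases after the start, plus strand. Capitals mark TAATCC or TAATCT, searched on both strands. The *Arr3* window (chrX:100605247-100605546) held 3 such matches and the *Pde6h* window (chr6:136954273-136954572) held 0.

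*Arr3* promoter: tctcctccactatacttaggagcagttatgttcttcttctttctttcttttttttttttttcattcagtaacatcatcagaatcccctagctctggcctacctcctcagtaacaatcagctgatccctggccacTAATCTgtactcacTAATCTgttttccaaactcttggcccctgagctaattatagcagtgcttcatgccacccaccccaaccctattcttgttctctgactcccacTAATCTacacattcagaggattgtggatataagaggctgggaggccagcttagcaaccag
*Pde6h* promoter: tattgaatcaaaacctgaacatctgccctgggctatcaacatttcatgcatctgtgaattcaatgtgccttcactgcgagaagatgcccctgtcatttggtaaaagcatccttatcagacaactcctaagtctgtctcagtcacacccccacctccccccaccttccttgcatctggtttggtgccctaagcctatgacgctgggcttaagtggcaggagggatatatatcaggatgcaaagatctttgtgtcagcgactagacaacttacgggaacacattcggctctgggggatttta

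No tested rod or shared phototransduction gene fell as far as *Pde6h* or *Arr3*, though *Rcvrn* fell further than *Pde6c* and *Opn1sw*. Over the whole phototransduction list of the study, 21 of 23 genes were tested, and the median log2 ratio was -0.35. Of the 21, 6 fell and 1 rose, against 0.518% and 0.334% of all tested genes. The list was drawn up by the study that made these libraries. Without *E168d2/+* replicate C, 10 fell and 2 rose, against 0.931% and 1.11% of all genes tested that way. Any other library left out gave 3 to 5 falls and 0 or 1 rise, against 0.117% to 0.208% and 0.0167% to 0.108%. With *E168d2/+* replicate C and *E168d2neo/+* replicate B both left out, 10 fell and 5 rose, against 5.63% and 8.73%. The 5 that rose were *Cngb3* and the rod genes *Gnat1*, *Gngt1*, *Pde6a* and *Sag*.

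*Rcvrn*, the calcium sensor recoverin of rods and cones, fell from 91.9, 109 and 116 CPM in *E168d2neo/+* to 60.7, 53.5 and 33.4 CPM in *E168d2/+*, against 547 to 565 CPM in WT. The log2 ratio was -1.14 ± 0.19 (SE, n = 3 in each group; limma FDR 0.0326), and the means were 8.88% and 19.1% of WT. The call was lost without *E168d2/+* replicate B or without any 1 of the *E168d2neo/+* libraries. *Rcvrn* lies within the span of *Glp2r* on the opposite strand, so reads of these genes may be shared. *Cngb1*, the modulatory subunit of the rod channel, was at 171, 162 and 141 CPM against 206, 217 and 206 CPM (log2 ratio -0.41, limma FDR 0.0489), and was called in 7 of 16 settings.

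No other rod component that is named here was called with all 6 libraries. *Gnat1*, the rod transducin subunit, spread widely in *E168d2/+*, at 240, 191 and 73.5 CPM with replicate C lowest, against 113, 146 and 149 CPM. Its log2 ratio was 0.15 ± 0.35, and 0.67 without replicate C, where it passed. The phosphodiesterase subunits *Pde6a*, *Pde6b* and *Pde6g* had log2 ratios of 0.03, -0.08 and -0.21, and the arrestin *Sag* 0.10. Of 9 rod genes tested, 1 fell, the actin-bundling *Fscn2* at 3.65, 3.09 and 2.62 CPM against 5.44, 6.42 and 5.69 CPM (log2 ratio -0.90, limma FDR 0.0347). Without *E168d2/+* replicate C 2 rod genes fell (*Fscn2* and *Nr2e3*), and 0 did without *E168d2/+* replicate B or any 1 *E168d2neo/+* library.

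Among regulators of the cascade, *Rgs9bp*, the anchor of the complex that switches transducin off, rose. It was at 240, 223 and 191 CPM in *E168d2/+*, at 161, 149 and 159 CPM in *E168d2neo/+*, and at 222 to 227 CPM in WT (log2 ratio 0.47, limma FDR 0.0451). Here *E168d2neo/+* was the group apart from WT. Of the 7 visual cycle genes, which recycle the retinal chromophore, 0 were called by limma, and 5 had an unadjusted p under 0.05, as did 19.6% of all tested genes. Their libraries did not overlap for 4 lower and 1 higher (12.9% and 15.3% of all tested genes), and the median log2 ratio was -0.23. *Rbp3* stood at 2864, 2817 and 2573 CPM against 3123, 3428 and 3140 CPM (FDR 0.157), and *Rdh12* at 105, 95.3 and 68.4 CPM against 108, 112 and 111 CPM (FDR 0.226).

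**Figure D3:**
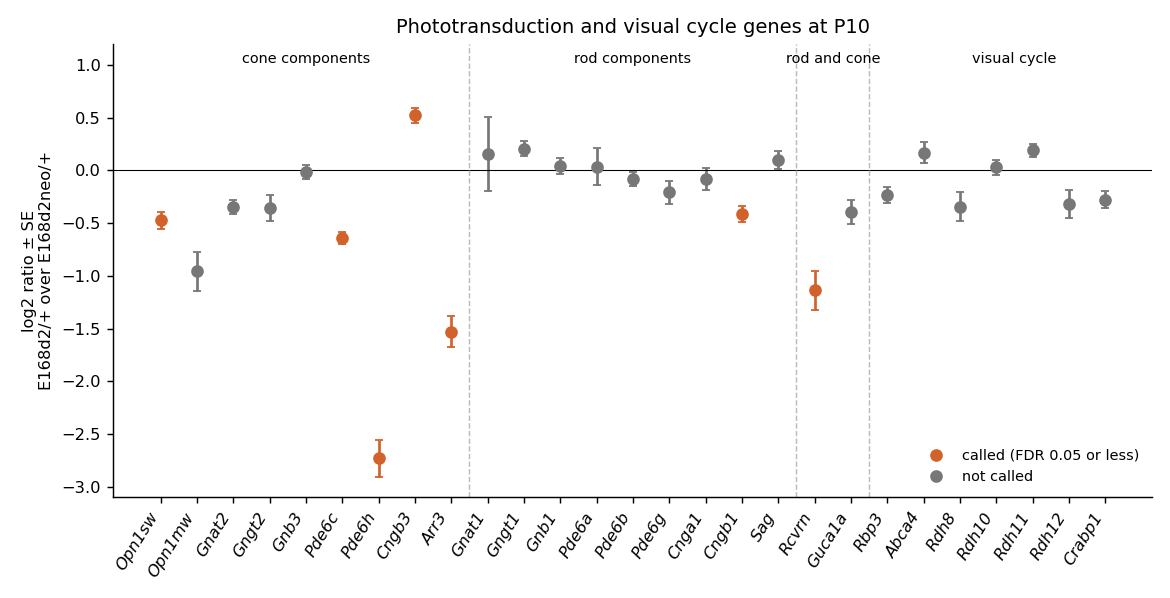
Log2 ratio of E168d2/+ over E168d2neo/+ at P10 with SE bars (n = 3 in each group) for tested phototransduction and visual cycle genes, grouped by rod or cone use. Orange genes were called at an FDR of 0.05 or less. Cone genes reach -2.73 (Pde6h), while most rod components lie close to 0.

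Outside phototransduction, the genes that fell most included the synaptic adhesion gene *Elfn1*, which photoreceptors use at contacts with bipolar cells. It was at 38.5, 43.8 and 42.6 CPM in *E168d2/+* and at 70.5, 92.6 and 76.8 CPM in *E168d2neo/+*, against 152 to 165 CPM in WT (log2 ratio -0.93 ± 0.10, limma FDR 0.00464). Of 27 tested photoreceptor synapse genes it alone was called. The count was 3 falls (*Cabp4*, *Cacna2d4* and *Elfn1*) without *E168d2/+* replicate C, where 0.931% of all tested genes fell. It was 8 falls and 2 rises without *E168d2neo/+* replicate B as well, against 5.63% and 8.73% of all tested genes. *Gm626* was at 21.2, 20.4 and 21.7 CPM against 43.0, 40.2 and 41.1 CPM, with 137 to 151 CPM in WT (log2 ratio -0.97 ± 0.07, limma FDR 0.00044). Both genes fell in order from WT through *E168d2neo/+* to *E168d2/+*, with no overlap between the groups.

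*Glp2r*, a peptide hormone receptor, had 11.7, 12.2 and 9.71 CPM in *E168d2/+* and 26.8, 26.6 and 32.2 CPM in *E168d2neo/+* (log2 ratio -1.34, limma FDR 0.00146), with the overlap with *Rcvrn* already given. The proton channel gene *Otop3* had 5.79, 5.11 and 6.03 CPM against 11.2, 11.9 and 10.1 CPM (log2 ratio -0.96, limma FDR 0.00842). The nuclear receptor *Nr4a1*, an immediate early gene, had 9.44, 8.45 and 8.48 CPM against 14.8, 17.1 and 17.7 CPM (log2 ratio -0.90, limma FDR 0.00711). *Nr4a1* in *E168d2neo/+* lay close to WT, at 90.2% of its mean, and was the 1 called gene of 14 tested immediate early genes. That count was 2 without *E168d2/+* replicate C and 0 without *E168d2neo/+* replicate C. Of the 14, 9 had an unadjusted limma p under 0.05, as did 19.6% of all tested genes. Their libraries did not overlap for 7 lower and 1 higher (12.9% and 15.3% of all tested genes), and the median log2 ratio was -0.29. *AI847159* completed the 10 largest falls, at 9.87, 7.95 and 6.03 CPM against 14.7, 14.4 and 15.8 CPM (log2 ratio -0.93, limma FDR 0.0352).

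The largest rises included *Atp4a* and *Col16a1*, both low in WT. *Atp4a*, the catalytic subunit of the gastric proton pump, was at 6.12, 5.36 and 9.34 CPM in *E168d2/+* and at 1.51, 2.43 and 1.98 CPM in *E168d2neo/+*, with 0.564 to 0.642 CPM in WT (log2 ratio 1.75 ± 0.23, limma FDR 0.0148). *Col16a1*, a fibril-associated collagen, was at 58.9, 53.2 and 59.3 CPM against 25.5, 31.3 and 23.9 CPM, with 4.17 to 5.08 CPM in WT (log2 ratio 1.09 ± 0.10, limma FDR 0.00244). For both genes the order was WT, *E168d2neo/+*, *E168d2/+*, without overlap. *Col4a3*, a basement membrane collagen, followed the same order of means with 22.3, 27.5 and 21 CPM against 14.8, 14.7 and 13.7 CPM (log2 ratio 0.70, limma FDR 0.0261).

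*Fam46c* (*Tent5c*), which codes for a poly(A) polymerase, was at 15.9, 15.1 and 16.9 CPM against 8.54, 7.51 and 8.5 CPM (log2 ratio 0.95, limma FDR 0.00345). *Aim2*, a sensor of cytosolic DNA, was at 14.5, 14.1 and 13.3 CPM against 8.27, 6.78 and 8.09 CPM (log2 ratio 0.86, limma FDR 0.0108), and overlaps *Cadm3* on the opposite strand. *Thap2* was at 18.9, 18.6 and 24 CPM against 12.4, 10.9 and 12.6 CPM (log2 ratio 0.76, limma FDR 0.0247). *Thap2* in *E168d2/+* was at the level of WT (17.5 to 21.1 CPM), and *E168d2neo/+* was the lower group. The histone gene *Hist3h2a* (log2 ratio 0.97), the non-coding *Gm16197* (*Trp53cor1*, 0.73), the hyaluronan receptor gene *Cd44* (0.66) and *Myrip* (0.66), a linker of myosin VIIa to Rab27, completed the 10 largest rises, all called by limma. *Hist3h2a* overlaps *Trim17* on the same strand. Of the 102 called genes, 12 overlap a tested gene on the opposite strand and 4 on the same strand.

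**Figure D4:**
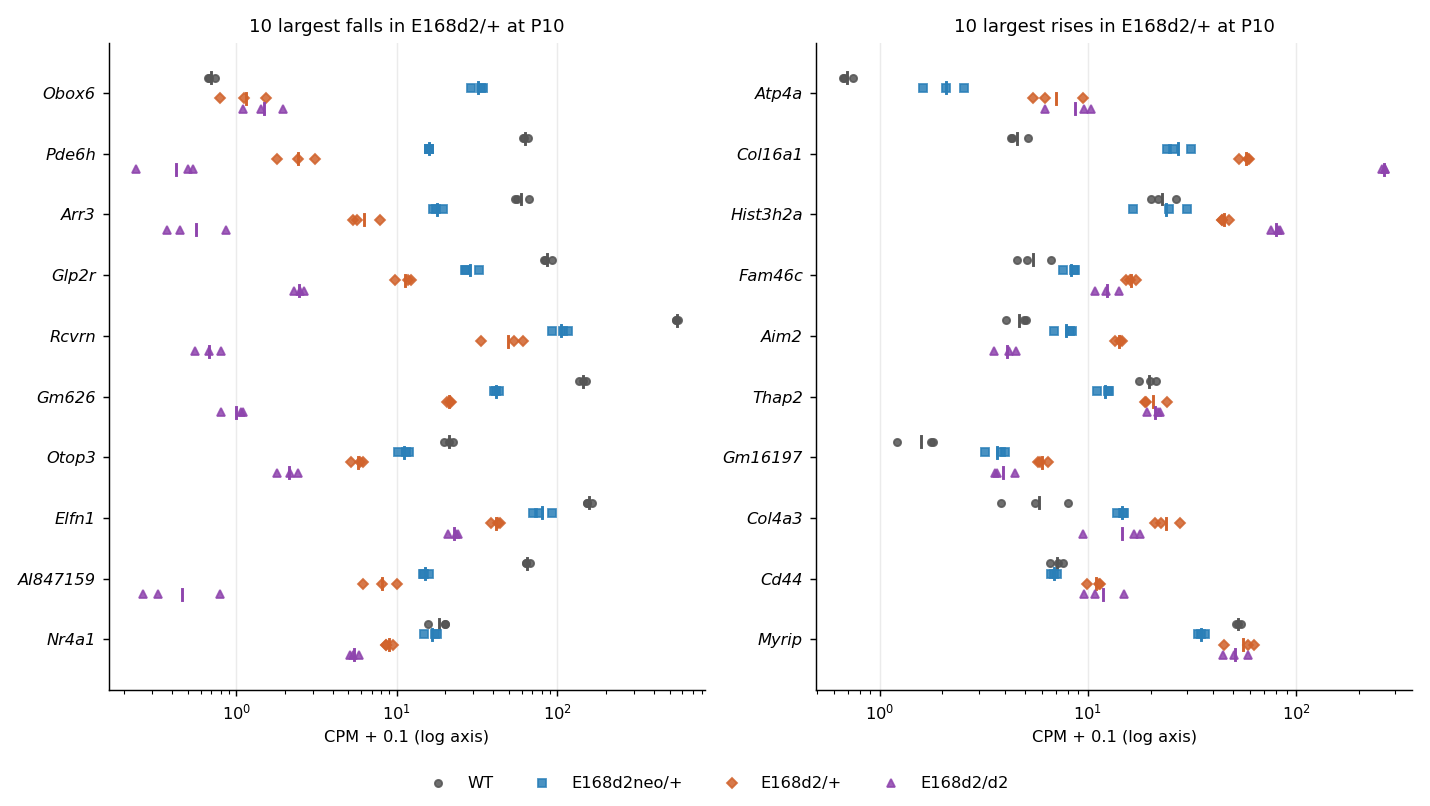
The 10 largest falls (left) and 10 largest rises (right) of E168d2/+ over E168d2neo/+ at P10 among called genes, as CPM + 0.1 on a log axis. Each point is a library of WT (grey circles), E168d2neo/+ (blue squares), E168d2/+ (orange diamonds) or E168d2/d2 (purple triangles), and ticks mark group means. For Pde6h, Arr3 and Gm626 the groups step down from WT to E168d2/d2, and for Col16a1 they step up, while Obox6 is high in E168d2neo/+ only.

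Further called genes, named after their values were seen, moved by less. *Ano2*, a calcium-activated chloride channel of photoreceptor terminals, was at 79.0, 81.0 and 75.1 CPM in *E168d2/+* and at 99.2, 113 and 102 CPM in *E168d2neo/+*, with 186 to 192 CPM in WT (log2 ratio -0.42, limma FDR 0.0326). The lipid-binding *Sec14l2* was at 44.1, 45.6 and 47.5 CPM against 66.2, 76.2 and 61.2 CPM (log2 ratio -0.56, limma FDR 0.0247). The scaffold gene *Akap5*, which anchors protein kinase A, rose to 42.3, 41.4 and 39.7 CPM from 29.8, 25.7 and 26.6 CPM (log2 ratio 0.59, limma FDR 0.0148). All 3 lay in order from WT through *E168d2neo/+* to *E168d2/+*.

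Of 23 tested photoreceptor transcription factor genes, 1 fell and 1 rose. Without *E168d2/+* replicate C 3 fell (*Nr2e3*, *Otx2* and *Pias3*) and 1 rose, against 0.931% and 1.11% of all genes tested that way. With *E168d2neo/+* replicate B also left out 8 fell and 3 rose, against 5.63% and 8.73% of all tested genes. Without *E168d2/+* replicate A or B, or *E168d2neo/+* replicate A or C, 0 were called by limma. *Pias3*, whose product modifies photoreceptor transcription factors, was at 277, 283 and 288 CPM in *E168d2/+* and at 365, 377 and 365 CPM in *E168d2neo/+*, with 466 to 479 CPM in WT (log2 ratio -0.39 ± 0.05, limma FDR 0.02). *Rxrg*, a nuclear receptor that acts in cone opsin patterning, was at 33.0, 33.7 and 29.7 CPM against 20.6, 23.3 and 22 CPM, with 11 to 14 CPM in WT (log2 ratio 0.55 ± 0.08, limma FDR 0.0247). Both moved away from WT in order. *Nr2e3* (log2 ratio -0.33, FDR 0.0534), *Otx2* (-0.31, FDR 0.0863) and *Onecut1* (-0.72, FDR 0.0633) missed the limit, and *Nrl* had a log2 ratio of -0.09.

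*Nr2e3* and *Otx2* differed from *Pias3* in their place relative to WT. *Nr2e3* was at 1511, 1483 and 1584 CPM in *E168d2/+* and at 1502 to 1596 CPM in WT, with 1895, 1976 and 1863 CPM in *E168d2neo/+*. *Otx2* was at 528, 546 and 597 CPM in *E168d2/+*, 744, 640 and 692 CPM in *E168d2neo/+* and 476 to 516 CPM in WT. For both, *E168d2neo/+* was the highest group.

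Genes that mark other retinal cells were rarely called with all 6 libraries. In the study's lists of 10 genes each, 0 of the tested bipolar, amacrine and ganglion neuron genes were called by limma (3 of 28 had an unadjusted p under 0.05, against 19.6% of all tested genes), while 1 of 8 horizontal neuron genes fell. That gene was *Ndrg1*, at 526, 532 and 621 CPM against 763, 813 and 758 CPM (log2 ratio -0.48, limma FDR 0.0283), and it lost the call without *E168d2/+* replicate A or B or any 1 *E168d2neo/+* library. The lists for glia, microglia, vessels, blood, pigment epithelium, cornea, muscle, the circadian clock, cell cycle and apoptosis held 0 limma calls each, and 21 of their 122 tested genes had an unadjusted p under 0.05, close to the share of all tested genes. Without *E168d2/+* replicate C, 4 of 17 glial genes (*Abca8a*, *Aqp4*, *Glul* and *Kcnj10*), 2 of 18 clock genes, 1 of 15 vessel genes and 1 of 10 bipolar genes were called higher, against 1.11% of all genes tested that way. With *E168d2neo/+* replicate B also left out, 10 glial, 9 vessel and 5 clock genes were called higher, against 8.73% of all tested genes. The glial and vessel counts of 0 therefore rest on these libraries. Of the lens genes 1 of 10 was tested. Ribosomal protein genes also held 0 limma calls among 30, but 12 had an unadjusted p under 0.05 (19.6% of all tested genes did), 27 had ratios below 0, and they summed to 2220 to 2320 CPM in *E168d2/+* and 2430 to 2660 CPM in *E168d2neo/+*.

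Genes enriched in rods or cones, by lists in the study's supplement that were drawn from published WT and *Nrl*-/- retinas, were frequent among the called genes. Of the 62 that fell, 13 (21%) were rod-enriched and 9 (14.5%) cone-enriched. The shares of all tested genes were 1.86% and 3.12%. Of the 40 that rose, 3 (7.5%) were rod-enriched and 7 (17.5%) cone-enriched. The cone-enriched genes that rose were *Agpat9*, *Cngb3*, *H6pd*, *Hist3h2a*, *Nrcam*, *Rxrg* and *Tet1*. None codes for an opsin, arrestin or phosphodiesterase, but *Cngb3* is a cone channel subunit from the study's phototransduction list. These counts rested on single libraries, and so did the calls over all tested genes. Of all tested genes, 0.931% fell and 1.11% rose without *E168d2/+* replicate C. Any other library left out gave 0.117% to 0.208% lower and 0.0167% to 0.108% higher. Rod-enriched falls were 17 without *E168d2/+* replicate C, 4 without its replicate A, 2 without *E168d2neo/+* replicate B and 1 without *E168d2/+* replicate B or *E168d2neo/+* replicate A or C. Rod-enriched rises were 13 without *E168d2/+* replicate C and 0 without any other library. Cone-enriched falls were 18 without *E168d2/+* replicate C and 4 to 6 without any other library, and cone-enriched rises were 10 and 0 to 4. With *E168d2/+* replicate C and *E168d2neo/+* replicate B both left out, 39 of 224 rod-enriched genes fell and 41 rose. Falls among them then no longer outnumbered rises. In that fit 54 of 377 cone-enriched genes fell and 60 rose, against 5.63% and 8.73% of all tested genes. Over both full lists the medians were near the background, at -0.03 for 222 tested rod-enriched genes and -0.01 for 373 cone-enriched genes.

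The place of the genotypes relative to WT varied from gene to gene. The *E168d2neo/+* mean lay between WT and *E168d2/+* for 35 of the 62 genes that fell (56.5%) and 24 of the 40 that rose (60.0%), against 39.6% of all tested genes. WT lay between the mutants for 19 (30.6%) and 9 (22.5%), against 28.9%. In the remaining 8 (12.9%) and 7 (17.5%), against 31.5%, *E168d2/+* lay between WT and *E168d2neo/+*. These 15 genes, named after their values were seen, included *Obox6*, *Rgs9bp*, *Txnip* and *H1f0*.

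*Txnip*, an inhibitor of thioredoxin and of glucose uptake, was at 31.2, 36.0 and 37.0 CPM in *E168d2/+*, at 66.6, 58.3 and 58.5 CPM in *E168d2neo/+* and at 30.8 to 31.9 CPM in WT. The linker histone gene *H1f0* had the same layout, with 49.2, 55.1 and 55.2 CPM, then 73.0, 83.4 and 72.2 CPM, and 49.3 to 52.4 CPM in WT. Both were called lower in *E168d2/+*, which lay near WT for both.

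Against WT, with a fold limit of 2 beside the FDR, *E168d2/+* and *E168d2neo/+* were each compared separately, and these comparisons share libraries with the main one. Of the 62 genes that fell, 25 were called lower and 1 higher in *E168d2/+* against WT (1.09% and 0.498% of tested genes). In *E168d2neo/+* against WT the counts were 11 lower and 3 higher (0.707% and 0.35%). Of the 40 that rose, 16 were called higher in *E168d2/+* against WT and 4 in *E168d2neo/+* against WT.

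The homozygous *E168d2/d2* retina against WT shares no library with the main comparison. Of the 62 genes that fell, 61 were tested there, 35 were called lower and 3 higher, against 3.24% and 2.28% of all tested genes, and their median log2 ratio was -1.49 against 0.10. The 3 higher genes were *Dynlt1b*, *Igsf21* and *Tmem181b-ps*, and the first and last have near-identical copies, so their counts are uncertain. Of the 40 genes that rose, 37 were tested, 14 were called higher and 2 lower (*B130055M24Rik* and *Rgs9bp*), with a median of 0.77. *Pde6h* was at 0.137 to 0.435 CPM in *E168d2/d2*, *Arr3* at 0.273 to 0.762 CPM and *Rcvrn* at 0.455 to 0.707 CPM, all far under both heterozygotes.

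*Col16a1* reached 267, 258 and 268 CPM in *E168d2/d2*, above both heterozygotes. *Cngb3* was at 68.1, 73.7 and 65.1 CPM there, above WT and below the *E168d2/+* libraries. *Gngt2*, a cone transducin subunit with a log2 ratio of -0.35 that was not called, was at 375 to 409 CPM in *E168d2/d2* against 82.4 to 85.6 CPM in WT. Across the 98 called genes tested in both comparisons the Pearson correlation of log2 ratios was 0.707, and across all 11903 it was 0.314, over genes that are not independent. Y-linked genes summed to 176, 1.55 and 320 CPM in *E168d2/d2* replicates A, B and C, against 137 to 148 CPM in WT.

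**Figure D5:**
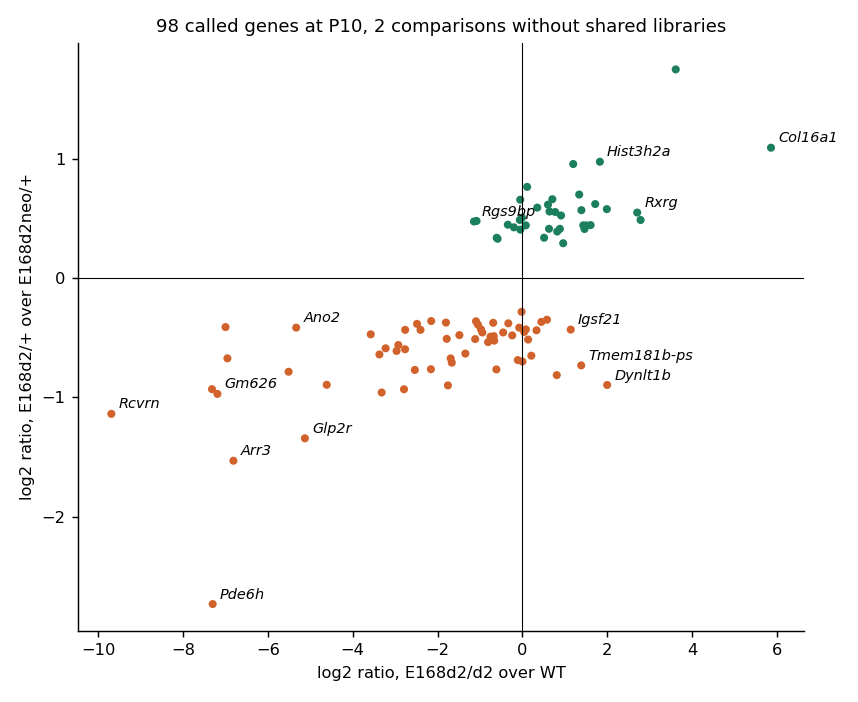
The 98 genes called at P10 that were tested in both comparisons, by log2 ratio of E168d2/d2 over WT (horizontal) and of E168d2/+ over E168d2neo/+ (vertical). Orange genes were lower and green genes higher in E168d2/+, and the Pearson correlation was 0.707. Most orange genes lie left of 0, and Dynlt1b, Igsf21 and Tmem181b-ps lie at the lower right.

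Among the other large falls, *Gm626* was at 0.707 to 1.002 CPM in *E168d2/d2*, *AI847159* at 0.163 to 0.689 CPM and *Glp2r* at 2.18 to 2.55 CPM. *Elfn1* kept more, at 20.7 to 23.9 CPM, and *Pde6c* was at 8.24 to 11.4 CPM. The transcription factor genes continued in the order of the heterozygotes, with *Pias3* at 73.8 to 90.2 CPM and *Rxrg* at 82.9 to 86.5 CPM. *Aim2* did not, at 3.45 to 4.41 CPM against 3.95 to 4.96 CPM in WT, and *Thap2* was at 19.2 to 22 CPM, near WT.

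The same genes were also looked up in the change with age in WT, from P10 to P21. Of the 62 genes that fell, 60 were tested in WT, 16 were called lower and 6 higher at P21, against 4.02% and 4.81% of all tested genes. Of the 40 that rose, 35 were tested, 2 were called lower and 8 higher. Across the 95 called genes tested in both the Pearson correlation was 0.107, and across all 11802 it was 0.159. The median of all genes in WT was -0.17 and the share of called genes that were lower was 45.5%, or 30.5% with median scaling.

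At P21 the same genotypes were compared in 6 other libraries, and 288 genes (2.42%) were called, 219 higher (1.84%) and 69 lower (0.58%). The lower share was 24% as deposited and 50% with median scaling. Of the 62 genes that fell at P10, 58 were tested at P21, 3 were called lower (*Fam123a*, *Fhod3* and *Fscn2*) and 1 higher (*4932418E24Rik*). Of the 40 that rose, 39 were tested and 7 were called higher (*Akap5*, *Cngb3*, *Col16a1*, *Col4a3*, *Gm16197*, *H6pd* and *Rgnef*). The sign was the same at both ages for 69 of 97 genes. Of those that fell, 42 of 58 had P21 ratios below 0, against 38.5% of all tested genes. Of those that rose, 27 of 39 had P21 ratios above 0, against 61.5% of all tested genes.

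*E168d2/+* P21 replicate B stood apart from its group in some of the genes looked up here. *Pde6h* was at 9.53, 54.2 and 11.9 CPM in the *E168d2/+* P21 libraries, *Arr3* at 59.3, 165 and 89.0 CPM and *Rcvrn* at 115, 513 and 165 CPM, with replicate B highest each time. Singling it out was a choice made after these values were seen. Leaving it out favours falls in these genes, so their calls without it do not test them. Without it, 29 of the 58 genes were called lower and 2 higher, and 13 of the 39 were called higher and 1 lower. The shares over all tested genes were then 4.2% lower and 10.2% higher. *Pde6h* then passed with a log2 ratio of -2.34 (limma FDR 7.97e-06), against -1.56 (FDR 0.11) with all libraries. *Rcvrn* went from -1.52 (FDR 0.0801) to -2.15 (FDR 2.8e-05) and *Arr3* from -0.61 (FDR 0.22) to -1.01 (FDR 0.00319).

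*Col16a1* at P21 was without overlap in any library. It was at 83.5, 55 and 103 CPM in *E168d2/+* and at 7.57, 8.04 and 6.73 CPM in *E168d2neo/+* at P21, a log2 ratio of 3.37 against 1.09 at P10. *Col4a3* was at 257, 175 and 283 CPM against 85.8, 71.9 and 110 CPM. A test of the difference between ages called 135 of 12320 genes (1.1%), 20 of them among the 102. Without *E168d2/+* P21 replicate B it called 829 genes (6.73%), among them 25 of the 62 that fell and 18 of the 40 that rose. The 102 were chosen by their ratios in the same P10 libraries, which favours a difference.

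The short sites searched in the *Arr3* and *Pde6h* windows were counted in all promoters of the RefSeq table. TAATCC or TAATCT on either strand was present for 11 of the 39 genes that fell and had a promoter there (28.2%), for 3 of 27 that rose (11.1%) and for 1036 of 8497 tested genes (12.2%). Of all 32851 promoters, 14.4% held one. *AI847159* had 2 matches and *Otop3* and *Hmgb2* had 1 in a window. *Obox6*, *Rcvrn*, *Gm626* and *Pde6c* had no entry. A match describes these letters in this window and is not a measured binding site.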

How the data were processed

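Whole-retina RNA from 30 pools was sequenced as 42-base single reads. Per the submitters' processing notes, alignment to mm9 used TopHat2 2.0.5 and counting over UCSC genes used HTSeq 0.6.1p1. The authors deposited CPM, scaled to the reads on genes of each library, for 12573 genes. Poly(A) selection is described in the methods and a ribosomal RNA removal kit in the sample records, which was not settled. Strand of counting is not given in the sources used here. The authors' edgeR 3.6.8 columns of fold changes and p-values were not used. No value column was left out. Another 20 genes carry dates in place of symbols and are not named, and 1 gene is not reported here.

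CPM were tested as log2(CPM + 0.1) with limma 3.58.1 in R 4.3.3 (eBayes with a variance trend, two-sided, Benjamini-Hochberg), each pair of groups in its own fit. Ratios on this scale understate changes of low genes. Depth was estimated from the smallest CPM step, counting error only. Figures were drawn with matplotlib 3.10.9 under Python 3.11.15. In simulated data for this comparison with 200 changed genes, 94% were recovered among 11879 genes at a log2 change of 0.5. There, 10 unchanged genes were called. The simulated noise was independent between genes and libraries, while in the real libraries 1 shared component held 59.5% of the variance within groups. The recovered share therefore does not give the power of this comparison.

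Named genes are *Crx*, its 20 neighbours, the phototransduction, visual cycle and transcription factor lists, the 10 largest rises and falls without overlap, and up to 4 called members of each other list. Others were named after their values were seen. Members and lists were chosen with earlier results of these data known. Alternatives were other added values, filters, scalings and fits, the replicate letter as a block, and each library left out.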

Additional observations from a re-analysis of the deposited data

Results flagged for a closer look

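For 20 of the 102 genes the log2 ratio of *E168d2/+* over *E168d2neo/+* differed between P10 and P21 by an interaction test over 12 libraries (limma FDR 0.05 or less). The 102 genes were chosen by their P10 ratios and the test uses the same P10 libraries, so the choice itself favours a larger ratio at P10. The value given is P10 minus P21. The largest was *Obox6* at -3.23 ± 0.47 (SE, FDR 0.00988), then *Col16a1* at -2.28 ± 0.24 (FDR 0.000932), whose rise was larger at P21. *Gm16197* was at -1.61, *4932418E24Rik* at -1.54 and *Dynlt1b* at -1.48. *4932418E24Rik* was called lower at P10 and higher at P21. *Btbd17* was at -1.18, *Gp1ba* at -1.02, *Pycr1* at -0.976, *Scube3* at -0.947, *Trib1* at -0.944 and *Tmem86a* at -0.895. *Fam110a* was at -0.738, *H1f0* at -0.716 and *Sez6* at -0.52.

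The difference was positive for 6 of the genes. *Rgs9bp* was at 0.875, *Thap2* at 0.864, *Apobec2* at 0.67, *Ampd3* at 0.621, *Tppp* at 0.563 and *Stard7* at 0.446. *Dynlt1b* and *Tmem181b-ps* have near-identical copies, so their counts are uncertain.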

How the results depend on the processing

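At P10 the counts were 40 higher and 62 lower. With all groups of the age in the fit they were 630 and 563, with 99 of the 102 genes among them. Without a variance trend 39 were lower. With the replicate letter as a block they were 305 and 297, with all 102 among them. The letters do not pair the libraries (correlations of deviations -0.3, 0.38 and 0.21). Leaving out 1 library gave 2 to 133 higher and 14 to 112 lower, and leaving out *E168d2/+* replicate C and *E168d2neo/+* replicate B, chosen after seeing the data, gave 1053 and 679.

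At P21 (219 higher, 69 lower) median scaling and trimmed mean scaling each gave 87 higher and quantile normalization 98. All groups in the fit gave 807 and 289, no variance trend 82 and 28, the block 44 and 9, and leaving out 1 library 8 to 1223 higher and 0 to 502 lower. The difference between ages (38 and 97) had 72 higher with median scaling and 67 with trimmed mean scaling, 275 and 590 with all groups, 16 and 51 with the block, and 3 to 269 and 19 to 560 without 1 library. Its lower share was 71.9%, and 53.5% or 56.2% with those scalings. The cause of these shifts was not tested.

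All 128 counts for comparisons with WT or between WT ages stayed within 1.5 times. Over the settings, 1189 values of the 83 named genes stayed on their side of the FDR limit, 100 lost the call and 39 gained it. The sign of the log2 ratio turned under some setting for 12 of the 83, among them *Gnat1*, *Pde6a* and *Esrrb*, none of them among the 102 called genes. For called genes the fits without 1 library could not turn it, since their groups did not overlap. *Obox6*, *Pde6h*, *Arr3*, *Glp2r*, *Gm626*, *Otop3*, *Elfn1*, *Pde6c*, *Col16a1* and *Fam46c* were called in all 16 settings. The count test was not run, since whole reads could not be recovered.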
